A study of Mus musculus with 8 samples.

Results

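The genes described here are 10 genes of blood and endothelial specification: Kdr, Etv2, Tal1, Lmo2, Fli1, Runx1, Cdh5, Hhex, Pecam1 and Tek. They were chosen by name, each symbol being matched to 1 Ensembl identifier in the GENCODE vM1 annotation, and all 10 were found among the 37620 genes counted in each library. Values are counts per 1000000 (CPM), the share of a library's strand-specific gene counts that fell on a gene. All 10 genes had at least 10 counts in at least 2 libraries, the minimum for testing.

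The 8 RNA-seq libraries belonged to 5 groups. Mesoderm progenitors were made from the mouse embryonic stem cell (mESC) line R1 as embryoid bodies, in a medium that held BMP4, Activin A and Wnt3a, and gave 1 library on day 3 and 1 on day 4. The day 4 cells had also received IWP-2, an inhibitor of Wnt secretion, for the last day, so day and treatment cannot be told apart. R1 mESCs were kept without feeder cells in a medium with serum, either with CHIR99021 (3 µM) and PD0325901 (1 µM), which inhibit GSK3 and MEK and are together called 2i, or with 2i and a JAK inhibitor (2 µM), called 2iJ. Each of these gave 1 library on day 5. In 2iJ+B-A, BMP4 (10 ng/ml) and an ALK5 inhibitor (10 µM) were added to 2iJ, and libraries were made on days 2, 5 and 11. The last library was of CDX2-GFP-positive cells sorted on day 2 of 2iJ+B-A from a reporter line of its own.

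Blood and endothelium arise together from mesoderm that expresses Kdr (also called Flk1), the main receptor for VEGF. Etv2, a transcription factor of the ETS family, acts at the head of the program in these cells, upstream of Tal1, Lmo2 and the ETS factor Fli1. Runx1 is needed for the later step in which endothelium gives rise to blood cells. Cdh5 (VE-cadherin), Pecam1 (CD31) and Tek (Tie2, the receptor for angiopoietins) are surface proteins of endothelium. Pecam1 is also found on mESCs and Hhex, a homeobox factor, also in early endoderm, so that neither marks blood or endothelium on its own.

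Because Etv2 and Fli1 are ETS factors, the DNA before the start sites of the genes is shown with the core letters of their motif, GGAA on either strand, in capitals. The sequences are the 250 bases before each start in RefSeq (mouse build GRCm38.p6, which is not the build of the count files), written 5′ to 3′ on the strand of the gene. RefSeq starts were found for 6 of the 10 genes, and the 4 starts of Etv2, Kdr and Tal1 are printed because these 3 genes were among those called higher in mesoderm progenitors. They lie at chr7:30635853-30636102 on the minus strand for Etv2, at chr5:75978456-75978705 on the minus strand for Kdr, and at chr4:115056176-115056425 and chr4:115057561-115057810 on the plus strand for both starts of Tal1.
Etv2: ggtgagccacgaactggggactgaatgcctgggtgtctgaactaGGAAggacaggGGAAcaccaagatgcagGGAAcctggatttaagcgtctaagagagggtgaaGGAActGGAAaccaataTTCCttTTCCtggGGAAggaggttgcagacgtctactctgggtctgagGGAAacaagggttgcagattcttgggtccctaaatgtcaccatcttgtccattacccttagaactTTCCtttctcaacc
Kdr: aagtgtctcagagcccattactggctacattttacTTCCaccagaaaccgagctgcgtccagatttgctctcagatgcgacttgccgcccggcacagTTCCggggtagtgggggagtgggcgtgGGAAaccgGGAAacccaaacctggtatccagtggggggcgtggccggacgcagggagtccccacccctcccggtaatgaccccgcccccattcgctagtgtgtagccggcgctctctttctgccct
Tal1, first start: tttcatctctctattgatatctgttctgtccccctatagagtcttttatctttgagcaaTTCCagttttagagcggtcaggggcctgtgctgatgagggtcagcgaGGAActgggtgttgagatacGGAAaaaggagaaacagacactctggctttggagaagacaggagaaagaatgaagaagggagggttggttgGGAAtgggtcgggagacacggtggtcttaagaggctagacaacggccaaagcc
Tal1, second start: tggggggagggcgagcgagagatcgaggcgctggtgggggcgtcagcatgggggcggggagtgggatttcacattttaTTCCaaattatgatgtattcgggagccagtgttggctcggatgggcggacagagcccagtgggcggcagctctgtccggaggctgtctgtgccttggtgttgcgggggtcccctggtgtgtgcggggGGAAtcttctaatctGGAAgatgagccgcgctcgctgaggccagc
The Etv2 sequence held 10 matches, Kdr 4, and the starts of Tal1 4 and 3. The other starts found were those of Runx1, with 6 and 4 matches, Hhex with 2 and Tek with 2. The core is common: 93.4% of the 32851 mouse starts in the same table held at least 1 match, with a median of 3. As many as the 10 matches of Etv2 were found before 0.192% of starts, and as many as 4 before 33.4%. A match is a run of letters and was not shown to be a bound site.

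Between 19810855 and 31453888 gene counts were available per library, so that 3 counts, taken here as the smallest level a library can show, corresponded to between 0.095 and 0.151 CPM. The sorted library was the shallowest and had 29.7% of its reads unmapped, against 2.17% to 3.85% in the others. The labelled identities were checked with marker genes of each cell type. The summed level of 8 mESC markers was 978 and 190 CPM on days 3 and 4 of the mesoderm progenitors, 2475 CPM in the sorted cells and between 3150 and 4350 CPM in the unsorted mESCs. Most of the day 3 sum was Pou5f1 (701 CPM) and Nanog (153 CPM), and most of the day 4 sum Tbx3 (106 CPM). Zfp42, Esrrb and Dppa3 were at 10.6, 6.20 and 0.03 CPM on day 3, against at least 468, 240 and 22.0 CPM in the unsorted mESCs. All 8 markers had lower fitted levels in mesoderm progenitors than in 2iJ+B-A. Markers of primitive streak and nascent mesoderm (8 genes) summed to 1721 and 297 CPM on days 3 and 4, against 10.7 to 54.2 CPM elsewhere. The 8 lateral and cardiac mesoderm markers went the other way between the days, from 176 to 1573 CPM. The 6 markers of mature white blood cells summed to 3.00 to 39.4 CPM, most of it Cd68 (2.49 to 35.8 CPM), and Itgam reached 3.52 CPM in 2i. Ptprc (CD45), the defining gene of the list, was at 0 in 7 libraries and at 0.10 CPM on day 3.

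In mesoderm progenitors, 6 of the 10 genes were called higher than in mESCs in 2iJ+B-A, where 11.5% of all genes tested were. All 6 were higher on day 4 than on day 3. These were the receptor Kdr, the transcription factors Etv2, Tal1, Lmo2 and Fli1, and the junction gene Cdh5. Their fitted levels were between 3.03 and 5.85 log2 units above 2iJ+B-A. Tal1 lay above 2iJ+B-A on day 4 only, since its day 3 level (0.38 CPM) was within the range of 2iJ+B-A (0.10 to 0.53 CPM). Hhex, Tek and Runx1 also had overlapping levels in both groups and were not called. Pecam1 was lower in both mesoderm libraries than in each 2iJ+B-A library. The plot of CPM by library shows these levels for each of the 10 genes.

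**Figure D1:**
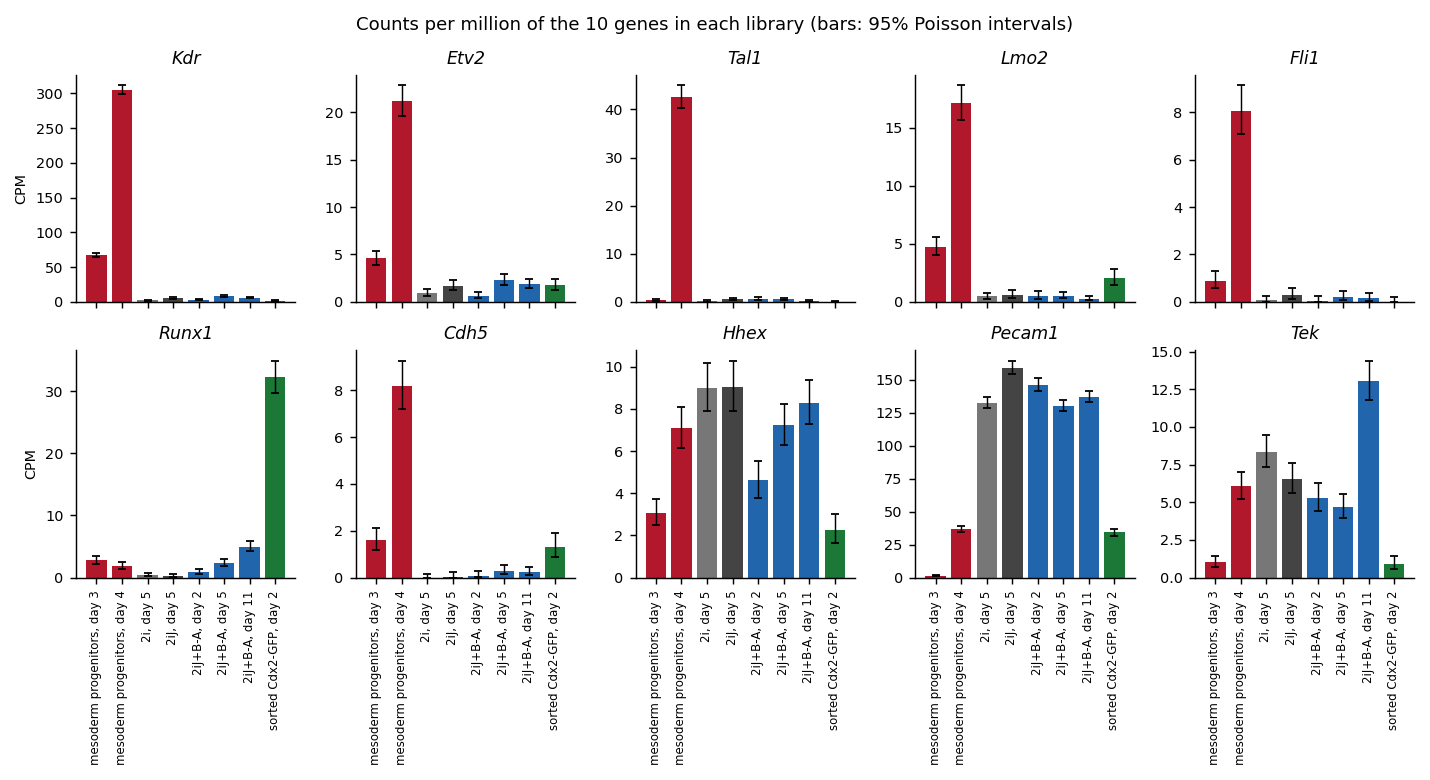
CPM of each of the 10 genes (vertical axis, a scale of its own for each gene, from 0) in the 8 libraries, with 95% exact Poisson intervals that cover counting error only. The day 4 mesoderm library is the highest of the 8 for Kdr, Etv2, Tal1, Lmo2, Fli1 and Cdh5, the sorted library (32.2 CPM) for Runx1, and the unsorted mESCs (130 to 159 CPM) for Pecam1.

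Kdr (ENSMUSG00000062960, chr5:76328852-76374483, minus strand, NCBIM37) was at 67.8 and 305 CPM on days 3 and 4 of the mesoderm progenitors. It was at 2.65, 8.14 and 5.66 CPM on days 2, 5 and 11 of 2iJ+B-A, at 2.10 CPM in 2i and at 5.49 CPM in 2iJ. The groups did not overlap: even the day 3 level was 8.33 times the highest of the 5 unsorted mESC libraries. The log2 fold change of mesoderm progenitors (n = 2) over 2iJ+B-A (n = 3) was 5.11 ± 0.74 (SE, edgeR adjusted p = 0.00634).

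Etv2 (ENSMUSG00000006311, chr7:31418635-31421308, minus strand), the ETS factor, was at 4.58 and 21.2 CPM on days 3 and 4. Its level was 0.65, 2.29 and 1.86 CPM on days 2, 5 and 11 of 2iJ+B-A, 0.89 CPM in 2i and 1.67 CPM in 2iJ. The day 3 level was thus only 2.0 times the highest mESC level, and the day 4 level 9.24 times. The log2 fold change over 2iJ+B-A was 3.03 ± 0.79 (SE, edgeR adjusted p = 0.0345).

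Tal1 (ENSMUSG00000028717, chr4:114729031-114744360, plus strand), a basic helix-loop-helix factor without which no blood forms, stood apart from Kdr and Etv2 in its timing. It was at 0.38 CPM (12 counts) on day 3 and at 42.6 CPM (1320 counts) on day 4. In 2iJ+B-A it was at 0.53, 0.51 and 0.10 CPM on days 2, 5 and 11, so that the day 3 level lay within the range of the mESCs. The log2 fold change over 2iJ+B-A was 5.85 ± 1.69 (SE, edgeR adjusted p = 0.0463). It rested on the day 4 library: with the day 3 library alone it was 0.07 (edgeR adjusted p = 0.97).

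Lmo2 (ENSMUSG00000032698, chr2:103798143-103822035, plus strand), which bridges Tal1 to GATA factors, was at 4.77 and 17.2 CPM on days 3 and 4. Its levels on days 2, 5 and 11 of 2iJ+B-A were 0.53, 0.54 and 0.26 CPM. All 5 unsorted mESC libraries (0.26 to 0.62 CPM) were thus under day 3, and the log2 fold change over 2iJ+B-A was 4.64 ± 0.71 (SE, edgeR adjusted p = 0.00726). The annotated gene 4931422A03Rik overlaps Lmo2 on the opposite strand, which strand-specific counting keeps apart.

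Fli1 (ENSMUSG00000016087, chr9:32229793-32348974, minus strand), a further ETS factor, was at 0.89 and 8.08 CPM on days 3 and 4. In 2iJ+B-A it had 1, 7 and 5 counts on days 2, 5 and 11, which is 0.04, 0.22 and 0.16 CPM and close to the smallest level that could be shown. The groups did not overlap (log2 fold change 4.93 ± 1.08, SE, edgeR adjusted p = 0.0208). Fli1 reached the minimum of 10 counts in the mesoderm libraries alone, so it entered the test through the group where it was high. Without the minimum its edgeR adjusted p was 0.00795. When 1 mesoderm library was left out, whichever it was, the gene no longer passed the minimum of counts and was not tested.

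Cdh5 (ENSMUSG00000031871, chr8:106625525-106668402, plus strand), the cadherin of endothelial junctions, was at 1.59 and 8.17 CPM on days 3 and 4. It had 2, 9 and 7 counts on days 2, 5 and 11 of 2iJ+B-A (0.08, 0.29 and 0.23 CPM), 0 counts in 2i and 1 count in 2iJ. The smallest level taken for the 2i library was 0.107 CPM, and the exact Poisson interval of its 0 counts reached 0.131 CPM. The log2 fold change over 2iJ+B-A was 4.59 ± 0.88 (SE, edgeR adjusted p = 0.014).

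Pecam1 (ENSMUSG00000020717, chr11:106515531-106611942, minus strand), an adhesion protein of endothelium, had the opposite pattern. In mesoderm progenitors it was at 1.27 and 36.8 CPM on days 3 and 4, and at 146, 130 and 137 CPM on days 2, 5 and 11 of 2iJ+B-A. In 2i and 2iJ it was at 132 and 159 CPM. Both mesoderm levels were lower than every unsorted mESC level, but the spread between days was wide, and the fall did not pass the test (log2 fold change -2.83 ± 1.15, SE, edgeR adjusted p = 0.118). With either mesoderm library left out it did: the log2 fold change was -1.83 with day 4 alone (edgeR adjusted p = 0.00382) and -6.71 with day 3 alone (edgeR adjusted p = 0.000575). Each of these fits has 1 mesoderm library, which is assumed to vary like the libraries of 2iJ+B-A, so the wide spread between days 3 and 4 no longer enters.

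Tek (ENSMUSG00000006386, chr4:94405980-94541667, plus strand), the angiopoietin receptor, was at 1.02 and 6.07 CPM on days 3 and 4, against 5.26, 4.71 and 13.0 CPM on days 2, 5 and 11 of 2iJ+B-A. Hhex (ENSMUSG00000024986, chr19:37507377-37515218, plus strand) was at 3.05 and 7.07 CPM on days 3 and 4, and at 4.61, 7.22 and 8.27 CPM in 2iJ+B-A. Day 4 overlapped 2iJ+B-A for both genes, and neither passed the test (log2 fold changes -1.09 ± 0.85 and -0.38 ± 0.49, SE, edgeR adjusted p = 0.376 and 0.597). Runx1 (ENSMUSG00000022952, chr16:92601712-92826311, minus strand) also overlapped, with 2.77 and 1.91 CPM on days 3 and 4 against 0.86, 2.35 and 4.95 CPM in 2iJ+B-A (log2 fold change -0.21 ± 0.70, SE, edgeR adjusted p = 0.85).

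Thus 6 of the 10 genes, or 5 of the 9 other than Fli1, were called higher in mesoderm progenitors than in 2iJ+B-A, and 0 were called lower. Over all 16961 genes tested, 11.5% were called higher and 15.5% lower. The median log2 fold change was 3.81 for the 10 genes and -0.025 for all genes tested. The calls of Kdr and Lmo2 held with each library of either group left out in turn. That of Cdh5 was lost without day 5 of 2iJ+B-A (edgeR adjusted p = 0.0519). Those of Etv2, Tal1 and Fli1 were lost when any of the 3 libraries of 2iJ+B-A was left out (edgeR adjusted p between 0.0623 and 0.129). The calls of Etv2 and Tal1 were also lost without day 4 of the mesoderm progenitors (log2 fold changes 1.56 and 0.07). Fli1 was not tested when a mesoderm library was left out. Days serve as the samples of a group, and nothing in the labels says that they were separate cultures, so the p-values measure the spread between these libraries. In bulk RNA, fewer cells of a type and less RNA per cell cannot be told apart.

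**Figure D2:**
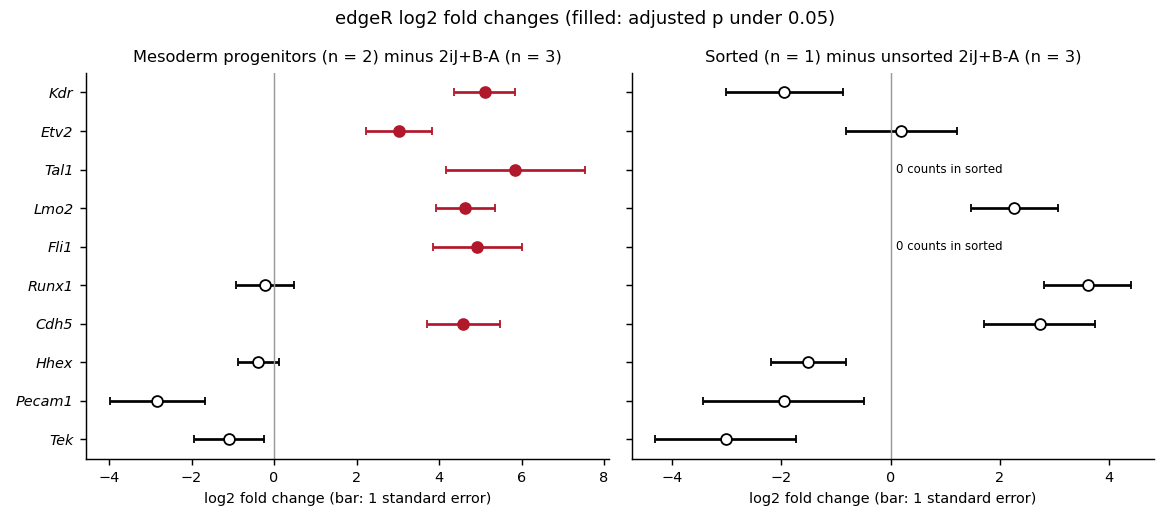
Log2 fold changes of the 10 genes (horizontal axis) with 1 standard error. The left panel gives mesoderm progenitors minus 2iJ+B-A, where the 6 filled points, between 3.03 and 5.85, have an edgeR adjusted p under 0.05, and the right panel gives sorted minus unsorted 2iJ+B-A, where no point passed and Runx1 (3.61) lies highest.

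Against the mESCs that had received no BMP4 (2i and 2iJ, n = 2), 5 of the 10 genes were called higher in mesoderm progenitors. These were Kdr (log2 fold change 5.73 ± 0.91, SE, edgeR adjusted p = 0.00837), Lmo2 (4.29 ± 0.82, adjusted p = 0.014), Fli1 (4.91 ± 1.30, adjusted p = 0.0367), Etv2 (3.34 ± 0.94, adjusted p = 0.043) and Cdh5 (adjusted p = 0.0104), for which no fold is given because 2i and 2iJ had 0 and 1 counts. Fli1 reached the minimum of 10 counts in the mesoderm libraries alone, so it entered this test too through the group where it was high. Over all genes tested, 12.2% were called higher and 14.4% lower. Tal1 did not pass (6.45 ± 2.11, edgeR adjusted p = 0.0661). Nor did Runx1, at 0.46 CPM in 2i and 0.23 CPM in 2iJ, although both mesoderm levels lay above them (2.75 ± 0.87, edgeR adjusted p = 0.0601). Both passed with DESeq2 (adjusted p = 0.00829 and 0.00662) and with no minimum of counts (edgeR adjusted p = 0.0352 and 0.0395). DESeq2 called 7 of the 10 genes, beside 5673 of all 16961 genes tested, higher and lower together. Hhex, Pecam1 and Tek were lower in both mesoderm libraries than in 2i and in 2iJ and did not pass (log2 fold changes -0.88 ± 0.54, -2.98 ± 1.21 and -1.11 ± 0.91, SE, edgeR adjusted p = 0.261, 0.115 and 0.396). This comparison shares its mesoderm libraries with the one against 2iJ+B-A, and 2i and 2iJ were 1 library each. Without 2i only Kdr and Cdh5 were called, and without 2iJ only Kdr, Lmo2 and Cdh5. Fitted without the other groups, which left 1 residual degree of freedom, 0 of the 10 genes and 35 genes in all were called.

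Within the mesoderm progenitors, 9 of the 10 genes were at least 2-fold higher on day 4 than on day 3. With 1 library a day there is no test between the days, and the ratios below have 95% exact intervals for counting error only. Among all 16961 genes tested, 9.47% were at least 2-fold higher on day 4 and 11.7% at least 2-fold lower, with genes under 3 counts set at 3. The median log2 ratio was 2.29 for the 10 genes and 0.023 for all genes tested.

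The largest ratio of the 10 was that of Tal1, which was 112 times higher on day 4 (63.8 to 217). Pecam1 was 28.9 times higher (21.1 to 40.7) and Fli1 9.07 times higher (6.13 to 13.9). These 3 genes were each under 1.3 CPM on day 3, and at 42.6, 36.8 and 8.08 CPM on day 4. Tek was 5.97 times higher (4.09 to 8.98) and Cdh5 5.14 times higher (3.78 to 7.11), and the receptor Kdr was 4.50 times higher (4.30 to 4.72), within the interval of Cdh5. Etv2 was 4.62 times higher (3.85 to 5.57), Lmo2 3.60 times (2.99 to 4.34) and Hhex 2.32 times (1.82 to 2.98). Runx1 alone was lower on day 4, at 0.689 of its day 3 level (0.486 to 0.970). Expressed per kilobase of annotated exon, which allows levels to be set between genes, Kdr led on both days with 9.31 and 42.0 CPM per kb. It was followed on day 4 by Etv2 (14.2), Tal1 (9.74), Pecam1 (8.53) and Lmo2 (7.92 CPM per kb), whereas on day 3 Etv2 (3.08) and Lmo2 (2.20 CPM per kb) came next and Tal1, at 0.09 CPM per kb, was the lowest.

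**Figure D3:**
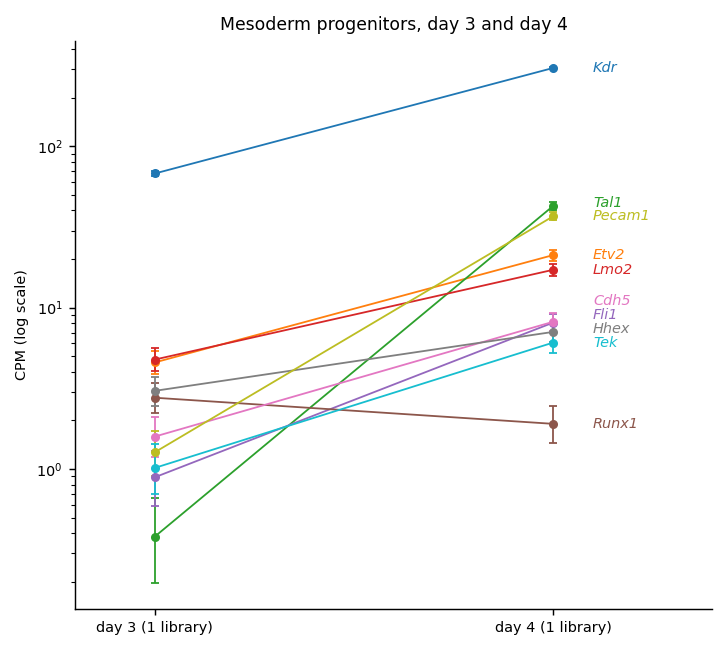
CPM of the 10 genes (vertical axis, log scale) in the day 3 and the day 4 library of mesoderm progenitors, with 95% exact Poisson intervals for counting error. The lines of 9 genes go up, that of Tal1 most steeply from 0.38 to 42.6 CPM, and that of Runx1 goes down from 2.77 to 1.91 CPM.

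In mESCs, BMP4 with the ALK5 inhibitor left the 10 genes without a call. Between 2iJ+B-A (n = 3) and 2iJ (n = 1), 0 of 10 genes passed the edgeR test, where 0.0% of all genes tested were called in either direction. At an unadjusted p under 0.05 there were 1290 genes, among them Runx1 as the only one of the 10, and DESeq2 called 309 genes and none of the 10. Runx1, the blood factor, was at 0.86, 2.35 and 4.95 CPM on days 2, 5 and 11 of 2iJ+B-A and at 0.23 CPM (6 counts) in 2iJ. Each 2iJ+B-A library was thus above 2iJ (log2 fold change 3.45 ± 1.18, SE, edgeR adjusted p = 0.569). For Kdr, Etv2, Hhex, Pecam1 and Tek the log2 fold changes were between -0.50 and 0.17 with SEs of 0.60 to 1.27 log2 units. The other 4 genes had at most 17 counts in any of these libraries.

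Within 2iJ+B-A, for which there was 1 library a day and no test, Tek and Runx1 were both highest on day 11. Tek was at 5.26, 4.71 and 13.0 CPM on days 2, 5 and 11, and its day 11 level was the highest of the 8 libraries. Across the same days, the summed level of 8 primitive endoderm markers was 448, 1076 and 3203 CPM, and that of 8 trophectoderm markers 549, 1299 and 624 CPM. Most of the primitive endoderm sum on day 11 was Col4a1 (1334 CPM) and Sparc (1247 CPM). The mESC markers stayed between 3150 and 3689 CPM. Whether these markers have a part in the Tek and Runx1 levels was not tested.

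The JAK inhibitor comparison had 1 library on each side and no test. Kdr was at 2.10 CPM in 2i and 5.49 CPM in 2iJ, a ratio of 2.62 (1.92 to 3.61, counting error only). Tal1 had 3 and 13 counts (ratio 4.75, 1.30 to 26.0) and Fli1 2 and 7 counts (ratio 3.83, 0.73 to 37.8). These were the 3 of 10 genes at least 2-fold higher in 2iJ, and 0 were 2-fold lower, where all genes tested gave 5.18% and 2.69%. Pecam1 (ratio 1.20, 1.15 to 1.26) and Hhex (1.00, 0.837 to 1.21) were close to equal.

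The sorted CDX2-GFP-positive cells had the highest Runx1 level of all libraries and the lowest Kdr and Tek. For Kdr and Tek the counting intervals overlapped those of another library. Tek was at 0.91 CPM (0.54 to 1.44), against 1.02 CPM (0.70 to 1.44) on day 3 of the mesoderm progenitors. Kdr was at 1.36 CPM (0.90 to 1.98), against 2.10 CPM (1.60 to 2.70) in 2i. Runx1 was at 32.2 CPM (638 counts) in the sorted cells, and at most at 4.95 CPM in unsorted 2iJ+B-A. The log2 fold change was 3.61 ± 0.79 (SE, edgeR adjusted p = 0.0536), just outside the threshold. It passed with DESeq2 (adjusted p = 0.00131), without the filter on low counts (edgeR adjusted p = 0.0258) and with only the groups compared in the fit (edgeR adjusted p = 0.0357). Lmo2 (2.07 CPM against 0.26 to 0.54 CPM) and Cdh5 (1.31 against 0.08 to 0.29 CPM) also lay above every unsorted library (log2 fold changes 2.27 ± 0.80 and 2.73 ± 1.01, SE, edgeR adjusted p = 0.137 and 0.149).

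Kdr (1.36 CPM), Hhex (2.27 CPM), Pecam1 (34.2 CPM) and Tek (0.91 CPM) were lower in the sorted cells than in all 3 unsorted libraries. Their log2 fold changes were -1.95 ± 1.07, -1.51 ± 0.69, -1.96 ± 1.47 and -3.02 ± 1.29 (SE, edgeR adjusted p between 0.195 and 0.429). DESeq2 called Tek (adjusted p = 0.0367), and the fit of the groups compared called Pecam1 (edgeR adjusted p = 0.00866). Tal1 and Fli1 had 0 counts in the sorted cells. With 0 set at 3 counts (0.151 CPM), Tal1 was 2.50-fold lower than the unsorted mean of 0.379 CPM. This fold rests on the setting and is not a lower limit, because the exact Poisson interval of 0 counts reached 0.186 CPM. The day 11 unsorted library, with Tal1 at 0.098 CPM, lay under both levels. No fold is given for Fli1, whose unsorted mean was itself under 0.151 CPM. Of the genes with counts in the sorted cells, only Etv2, at 1.77 CPM, lay within the unsorted range. With 0 set at 0.151 CPM, Tal1 (0.098 to 0.53 CPM unsorted) and Fli1 (0.041 to 0.223 CPM unsorted) lay within theirs too. How many of all genes lay outside the unsorted range was not counted.

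In all, 0 of the 10 genes passed the edgeR test between sorted and unsorted cells, where 3.34% of all genes tested were called higher and 2.08% lower. At an unadjusted p under 0.05 there were 3 of the 10 (Runx1, Lmo2 and Cdh5) and 4586 genes in all. DESeq2 called 2 of the 10 and 2665 of all 16961 genes tested. The median log2 fold change of the 10 was -0.61, with the genes at 0 set at 3 counts, and that of all genes -0.078. The 8 trophectoderm markers summed to 3852 CPM in the sorted library and to 549 to 1299 CPM in the unsorted ones. Most of the sorted sum was Krt8 (1731 CPM) and Krt18 (1595 CPM), whereas Eomes (2.68 CPM) and Hand1 (36.6 CPM) lay within the unsorted range. In mesoderm progenitors the same markers summed to 1022 and 881 CPM on days 3 and 4. The sorted library differs from them in cell line, sort and share of unmapped reads, and from those of days 5 and 11 in culture day, which cannot be told apart with 1 library. Beside the day 2 unsorted library alone, Runx1 was at 32.2 against 0.86 CPM, Tek at 0.91 against 5.26 CPM and Pecam1 at 34.2 against 146 CPM, but Kdr at 1.36 against 2.65 CPM.

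A wider list of 68 genes of the same pathway was set beside the 10, and 52 of them passed the minimum of counts. In mesoderm progenitors against 2iJ+B-A, 13 were called higher and 6 lower, against the 11.5% and 15.5% of all genes given above. The median log2 fold change was 0.23 for the 52 genes. The count of 19 calls fell to 6, 9 or 10 when day 5, 2 or 11 of 2iJ+B-A was left out.

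Among transcription factors of blood and endothelium, 6 of 21 tested were called higher and 2 lower, beside 11.5% and 15.5% of all genes tested. Mef2c, a factor of heart and endothelial precursors, was at 8.17 and 252 CPM on days 3 and 4 against 0.62 to 4.64 CPM in 2iJ+B-A (log2 fold change 5.76 ± 1.42, SE, edgeR adjusted p = 0.0294). Hey2, a Notch target, was at 1.05 and 33.1 CPM, so that only day 4 lay above 2iJ+B-A (0.72 to 1.37 CPM, log2 fold change 4.13 ± 1.22, SE, edgeR adjusted p = 0.0498). Gata2, which acts with Tal1 and Lmo2 in blood progenitors, went the other way. It was at 8.01 and 12.4 CPM in mesoderm progenitors, 120 to 210 CPM in 2iJ+B-A and 460 CPM in the sorted cells, but at only 3.02 and 12.3 CPM in 2i and 2iJ (log2 fold change -4.02 ± 0.35, SE, edgeR adjusted p = 0.00179). Nr2f2, a factor of veins, was also lower, at 0.16 and 0.61 CPM against 3.18 to 6.45 CPM (-3.74 ± 0.75, SE, edgeR adjusted p = 0.016). In 2i and 2iJ, Nr2f2 was at 0.64 and 0.43 CPM, and its day 4 mesoderm level lay between them. The remaining calls were Sox18, Ets1, Hey1 and Cbfb, all higher.

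Of ligands and receptors, 5 of 15 tested were called higher and 2 lower, beside 11.5% and 15.5% of all genes tested. The VEGF co-receptor Nrp1 was at 25.9 and 576 CPM on days 3 and 4 against 7.62 to 19.6 CPM in 2iJ+B-A (log2 fold change 4.49 ± 1.13, SE, edgeR adjusted p = 0.0309). Nrp2 was higher on day 3 (209 CPM) than on day 4 (81.8 CPM), with 19.76 to 24.13 CPM in 2iJ+B-A (2.72 ± 0.38, SE, edgeR adjusted p = 0.00578). Angpt1, a ligand of Tek, was higher but scarce, with at most 1.16 CPM (2.83 ± 0.77, SE, edgeR adjusted p = 0.0395). Flt1, a receptor that binds VEGF and acts as a decoy for it, went against Kdr in this comparison. It was at 8.74 and 6.59 CPM in mesoderm progenitors and at 14.7, 27.6 and 57.2 CPM on days 2, 5 and 11 of 2iJ+B-A (-2.10 ± 0.60, SE, edgeR adjusted p = 0.0439). In 2i and 2iJ, however, Flt1 was at only 4.76 and 6.38 CPM, so neither mesoderm level lay below them. Notch1 and Jag1 were also called higher and Kit lower.

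Endothelial junction and surface genes had 0 of 12 calls higher and 2 lower, beside 11.5% and 15.5% of all genes tested. Cldn5, of tight junctions, and Eng, a co-receptor for TGF-β and BMP ligands, were lower in both mesoderm libraries than in 2iJ+B-A (log2 fold changes -3.07 ± 0.69 and -1.79 ± 0.27, SE, edgeR adjusted p = 0.022 and 0.00737). Emcn was at 0 in all 8 libraries. Of the 12 genes of red cells and blood surface, 4 were tested and 2 called higher: Epor, the erythropoietin receptor (2.10 and 4.81 CPM against 0.69 to 0.91 CPM, log2 fold change 2.14 ± 0.53, SE, edgeR adjusted p = 0.0291), and Alas2, of heme synthesis (0.54 and 1.39 CPM against 0 to 0.13 CPM, 3.77 ± 0.94, SE, edgeR adjusted p = 0.0304). Alas2 and Sox18 reached the minimum of 10 counts in the mesoderm libraries alone (edgeR adjusted p without the minimum 0.0241 and 0.0486). The embryonic globin Hbb-bh1 had 20 counts on day 4 (0.65 CPM) and 0 in the other 7 libraries. The plot of the wider list gives all 52 fold changes.

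**Figure D4:**
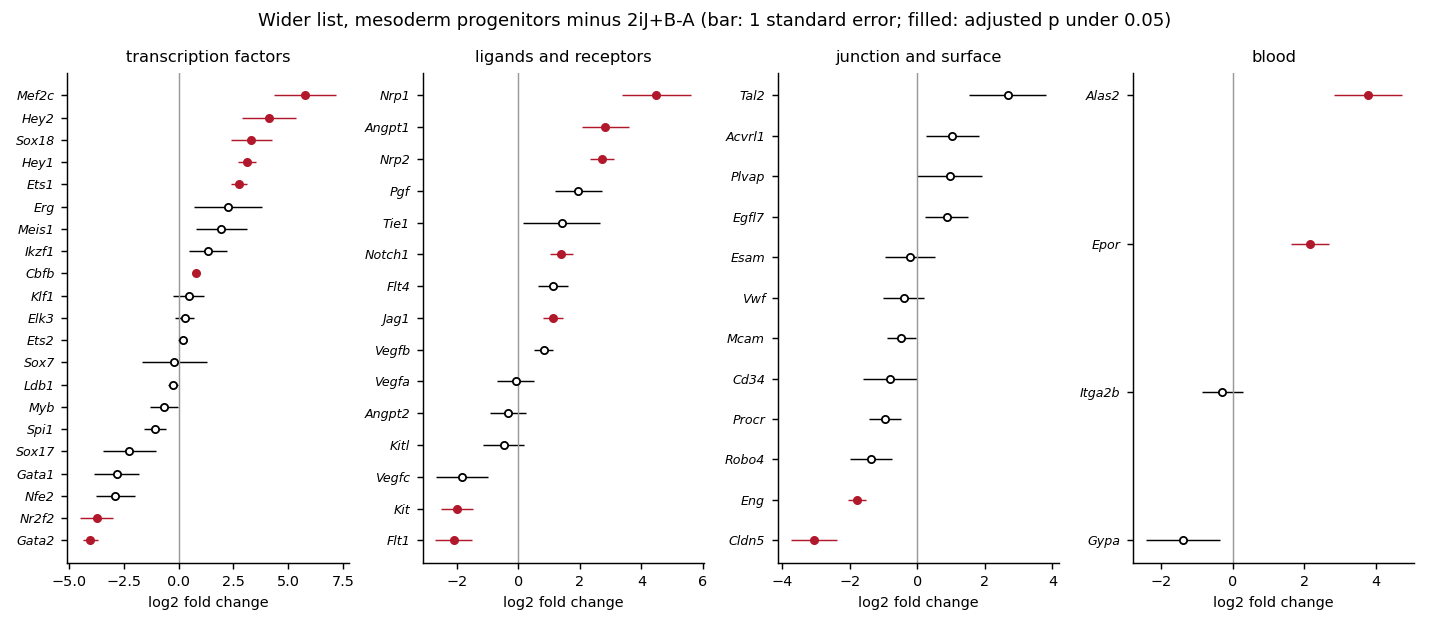
Log2 fold changes (horizontal axis, 1 standard error) of the 52 tested genes of the wider list in mesoderm progenitors minus 2iJ+B-A, by group. The 19 filled points have an edgeR adjusted p under 0.05, with Mef2c (5.76) the highest and Gata2 (-4.02) the lowest.

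In the other comparisons fewer genes of the wider list were called. Of the 52 genes, mesoderm progenitors had 6 called higher and 4 lower than 2i and 2iJ, beside 12.2% and 14.4% of all genes tested. Between 2iJ+B-A and 2iJ there were 0 calls by edgeR and 4 by DESeq2, beside 0 and 309 over all genes. In the sorted cells 1 was called, beside 3.34% of all genes higher and 2.08% lower: Spi1 (PU.1, a factor of myeloid cells), at 14.4 CPM against 0.33 to 0.38 CPM in unsorted 2iJ+B-A (log2 fold change 5.42 ± 0.48, SE, edgeR adjusted p = 0.00615). With 1 sorted library the call takes its spread from the groups that have more than 1, and it was lost without day 5 of unsorted 2iJ+B-A. The 6 white blood cell markers summed to 39.4 CPM there, of which Cd68 made up 35.8 CPM, and Ptprc was at 0.

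Finally, the genes whose levels ran most like those of Etv2, Kdr and Pecam1 over the 8 libraries were found among 11053 genes that reached 10 CPM in a library. The measure was Pearson's r of log2 CPM, given as a description over libraries that share their groups and, for 7 of the 8, the R1 line. For Kdr these were Ankrd50, Gpc3 and Gpc2 (r = 0.995 each), and for Etv2 Wiz and Foxk1 (0.99 each) and Wdr48 (0.979). For Pecam1 they were Fam175a and Dusp27 (0.969 each) and Zfp462 (0.963). Gpc3 rose from 175 to 710 CPM between days 3 and 4, with 10.6 to 34.8 CPM in the other libraries, whereas Wiz was between 36.7 and 82.4 CPM throughout.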

How the data were processed

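Counts were analysed for 8 mouse RNA-seq libraries grouped by their labels. The authors trimmed reads with cutadapt, aligned them to NCBIM37 and counted read pairs per gene with STAR (2.4.2a, named with bcl2fastq 2.17 in the submitters' processing notes), and deposited raw counts per gene for unstranded, forward and reverse counting. Reverse-strand counts were used here, unadjusted for experiment days. Symbols, loci and exon lengths came from GENCODE vM1, which named 37205 of 37620 identifiers. A wider-list symbol with several models took the longest, and Spi1 and Foxf1 were matched by RefSeq synonyms.

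CPM values are shares of total counts, with exact 95% Poisson intervals. Group differences were tested with edgeR 4.0.16 (R 4.3.3): quasi-likelihood test, TMM scaling, a minimum of 10 counts in 2 or more libraries (16961 genes), 1 coefficient for each of 5 groups, 3 residual degrees of freedom, a common biological coefficient of variation of 0.363, Benjamini-Hochberg adjustment over all genes tested and a threshold of 0.05. The SE of a log2 fold change was derived from it and its F statistic, as change / √F. Scripts were tested on simulated data. Alternatives were DESeq2 1.42.0, median-of-ratios scaling, no filter, unstranded counts, fits of the compared groups only, 2i and 2iJ pooled, and leaving out each library. Leaving out the sorted library, which is in neither group of the first comparisons, was added after seeing the data.

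All 10 genes are named in every library. Up to 4 called genes of each wider-list group with the largest log2 fold change against 2iJ+B-A, and the 3 genes most correlated with Etv2, Kdr and Pecam1, were named by rule. Other names, and the GGAA motif, were chosen after values were seen. The genes and lists were chosen with earlier results of these data known.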

Additional observations from a re-analysis of the deposited data

Results flagged for a closer look

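Hhex was the only one of the 10 genes with more counts on the wrong strand than its libraries had in general, a signal in the forward-strand counts that no comparison used. Its wrong-strand share was 12.73% and 12.75% on days 3 and 4 of the mesoderm progenitors and 13.46% in the sorted cells. It was 17.05% in 2i and 14.07% in 2iJ, and 21.53%, 12.02% and 14.19% on days 2, 5 and 11 of 2iJ+B-A. The share over all genes was between 5.03% and 6.47%. For the other 9 genes, 0 of 69 pairs of gene and library with counts lay above the share of the library, judged by exact 95% intervals. No annotated gene overlaps Hhex on the opposite strand. The source of these counts was not tested, and the Hhex levels in the report do not include them. No group had 4 or more libraries, so single libraries were not screened for outlying values.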

How the results depend on the processing

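The 10 genes kept their direction under all alternatives except for 11 values, none of which was called: Runx1 against 2iJ+B-A without day 4 of the mesoderm progenitors (log2 fold change 0.07) or without day 11 of 2iJ+B-A (0.60, with -0.63 the lowest value without 1 library). Hhex turned without day 3 of the mesoderm progenitors (0.15, lowest -1.09). Between 2iJ+B-A and 2iJ, pooling 2i with 2iJ turned Kdr (0.47), Etv2 (0.25), Tal1 (0.24) and Tek (-0.03), leaving out day 2 turned Kdr (0.25, lowest -0.45) and Etv2 (0.23), and leaving out day 11 turned Tek (-0.46, highest 0.43). Between sorted and unsorted cells, Etv2 turned without day 2 (-0.17, highest 0.52). The cause was not tested.

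Leaving out 1 library at a time gave 2 to 6 called genes of the 10 and 6 to 19 of the wider list against 2iJ+B-A, and 2 to 6 and 5 to 21 against 2i and 2iJ. Between sorted and unsorted cells, leaving out 1 library of 2iJ+B-A gave 0 to 1 of the wider list. Against 2i and 2iJ, the fit of only these groups called 0 of the 10 and 0 of the wider list. DESeq2 called 16 of the wider list, beside 5673 of all 16961 genes tested. Between 2iJ+B-A and 2iJ, DESeq2 called 4 and pooling 2i with 2iJ called 1 of the wider list. Between sorted and unsorted cells, DESeq2, no filter and the fit of only these groups called 2, 1 and 2 of the 10 and 12, 4 and 9 of the wider list. The DESeq2 counts stand beside 2665 calls over all 16961 genes tested. Over all genes, calls fell from 4584 to 2019 against 2iJ+B-A without day 5, and from 4522 to 35 in the fit of only mesoderm progenitors, 2i and 2iJ. They rose from 0 to 309 with DESeq2 between 2iJ+B-A and 2iJ, and went from 919 to between 37 and 2665 for the sorted cells. No paired analysis was possible because the labels give no replicate numbers that the groups share.

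All 30 log2 ratios of day 4 over day 3 under other scalings or unstranded counts stayed within the counting intervals. Depth limits Fli1, Cdh5 and Tal1 in unsorted mESCs, where they had at most 16 counts.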

Other observations

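Genes of the wider list, among them some that the report does not name above, also differed between days 3 and 4 of the mesoderm progenitors. There was no test, since there was 1 library a day. Of the 52 tested, 31 were at least 2-fold higher on day 4 and 5 at least 2-fold lower, beside 9.47% and 11.7% of all genes tested. Examples picked after their values were seen are Erg, an ETS factor of endothelium, at 0 and 6.40 CPM on days 3 and 4, and Tie1, the partner of Tek, at 0.03 and 2.16 CPM. Sox7, a SOX factor of endothelium, was at 0.38 and 9.53 CPM, and Meis1, a homeobox factor of blood progenitors, at 2.23 and 80.6 CPM. Among those that went the other way were the surface genes Cd34, at 1.15 and 0.19 CPM, and Robo4, at 1.11 and 0.45 CPM.

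Sox7 and Sox17, factors shared by endothelium and primitive endoderm, also differed between days 2, 5 and 11 of 2iJ+B-A, at 0.69, 2.61 and 13.9 CPM and at 1.06, 5.12 and 24.1 CPM. Tek was highest in the same day 11 library. Kdr, at 2.65, 8.14 and 5.66 CPM, and Etv2, at 0.65, 2.29 and 1.86 CPM, were highest on day 5.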
